A study of Macaca mulatta with 18 samples.

Results

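The mitochondrial genome of the rhesus monkey is represented by 38 genes in the expression tables of this study, out of 30246 genes in all. They are the genes whose locus lies on the chromosome named MT, a rule that uses position only. Brain RNA of 6 monkeys, 3 of Chinese and 3 of Indian origin, was sequenced from 3 regions, the striatum (STR), the prefrontal cortex (PFC) and the cerebellum (CER), giving 18 libraries. The Chinese-origin monkeys were 10.5, 11 and 11.5 years old and had been imported to the primate center as adults, while those of Indian origin were aged 7.5, 15 and 16 years. The origins were matched for sex and ate the same stock diet, and the 6 libraries of a region were run together in 1 lane. Each table holds 1 pooled value per gene and origin in FPKM, which is fragments scaled by transcript length and by library size. How much single monkeys varied is thus unknown, and no difference given here carries an error or a test. The depth of single libraries is also unknown here. The same 6 monkeys supplied all 3 regions, so a pattern seen in all of them was not found in independent animals. In bulk tissue, fewer cells of a type and less RNA per cell cannot be told apart.

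The mitochondrial genome is a small circle, present in many copies per cell, that is transcribed from both strands into long RNAs. These are cut into messenger RNAs for core subunits of the respiratory chain, the ribosomal RNAs of the mitochondrial ribosome and a set of transfer RNAs, which lie between the larger genes and mark many of the cutting points. All other proteins of the organelle, including most subunits of the respiratory chain, are encoded in the nucleus and imported. Neurons depend on this chain for the ATP that drives their ion pumps.

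The files gave a symbol to 13 of the 38 genes, 7 for complex I, 1 for complex III, 3 for complex IV and 2 for complex V. The other 25 had an identifier only, the reference annotation named 0 of them, and they are called here by their position in the build mmul1, counted from 1. The 38 genes filled 30 loci between bases 536 and 16014 of MT. A locus of up to 75 bases was listed for 17 genes (59 to 75 bases) and a longer one for 21 genes (143 to 1812 bases). Of the longer ones, 8 genes stood alone at their locus. The remaining 13 shared 5 loci, so that the length of the locus is not the length of the gene and reads of overlapping neighbors may have been split between them. Long and short refer here to the locus, so a gene counted as long may itself be short where its locus is shared. Reads from nuclear copies of mitochondrial DNA cannot be told apart here either.

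Many of the longest mitochondrial genes had no usable value, because Cuffdiff had given them the status HIDATA, its mark for a locus with too many fragments to be modelled. It was held by 14, 8 and 14 of the 38 genes in PFC, CER and STR, all with a locus above 75 bases. In the whole tables it was held by 15, 8 and 15 genes, so nearly every gene with that mark was mitochondrial. A value of 0 on such a line is a missing measurement and was left out, and other values on these lines are given as listed. The missing values were not spread evenly. On HIDATA lines Chinese-origin monkeys had a value where Indian-origin monkeys were listed at 0 for 9, 8 and 9 genes of PFC, CER and STR, and both origins were listed at 0 for 5, 0 and 5 genes. The opposite case, a value for Indian origin alone, was held by 0 HIDATA lines in any region. Values in both origins were left for 20, 26 and 22 genes.

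**Figure D1:**
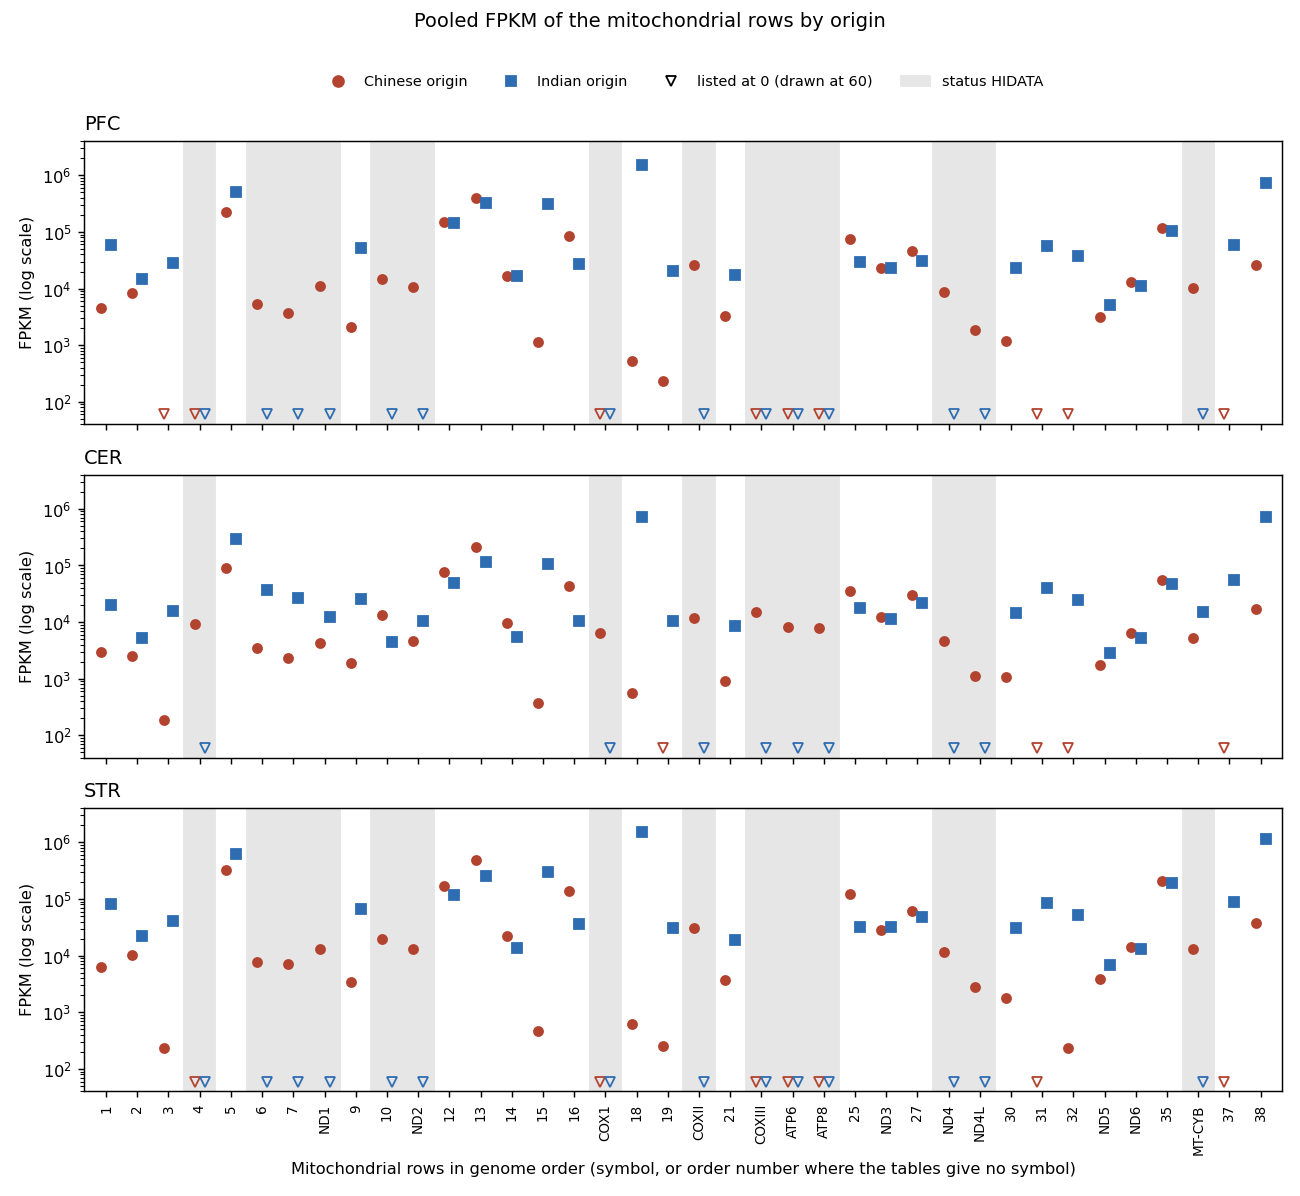
Pooled FPKM on a log axis of the 38 mitochondrial genes in genome order, for PFC, CER and STR from top to bottom, with Chinese origin as circles and Indian origin as squares; open triangles are values listed at 0 and grey bands are genes with HIDATA status. Triangles within the bands are missing measurements, and in every region most short genes outside the bands have the Indian-origin square far above the Chinese-origin circle.

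Complex I, the NADH dehydrogenase that feeds electrons into the chain, has 7 mitochondrial subunits, and ND3, ND5 and ND6 were the 3 with values in both origins of every region. ND3 (ENSMMUG00000028680, MT 10050 to 10395) had nearly equal pooled values. These were 22944 FPKM in Chinese-origin and 23211 FPKM in Indian-origin PFC, 12255 and 11384 FPKM in CER, and 28819 and 31755 FPKM in STR. The log2 ratio of Chinese over Indian origin came to -0.02, 0.11 and -0.14 in the same order of regions. ND3 thus differed by little in either direction.

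ND5 (ENSMMUG00000028673, MT 12328 to 14139) was lower in Chinese-origin monkeys in every region. It had 3192 FPKM in Chinese-origin and 5081 FPKM in Indian-origin PFC, 1736 and 2819 FPKM in CER, and 3883 and 6745 FPKM in STR. The log2 ratios were -0.67, -0.70 and -0.80, each past a 1.5-fold difference. ND6 (ENSMMUG00000028672, MT 14140 to 14667), the next gene along, leaned the other way. Its values were 13308 FPKM in Chinese-origin and 10970 FPKM in Indian-origin PFC, 6541 and 5249 FPKM in CER, and 14243.5 and 13258 FPKM in STR. The log2 ratios of 0.28, 0.32 and 0.10 stayed within 1.5-fold. ND6 is the subunit encoded on the opposite strand to the other 6, and no source used here says that reads were counted by strand, so antisense RNA of the neighboring genes cannot be told apart from it.

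These ratios have to be read against a shift common to all genes. Over the genes with status OK and an FPKM of 1 or more for either origin, the median log2 ratio came to 0.20, 0.10 and 0.31 in PFC, CER and STR, from 14426, 13874 and 14282 genes. Relative to it, ND5 was at -0.87, -0.80 and -1.11, and ND3 at -0.21, 0.01 and -0.45. ND6 was at 0.08 and 0.22 in PFC and CER, but at -0.21 in STR, where its direction turned. The lower ND5 in Chinese origin was thus present with and without the shift.

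Of the other complex I subunits, ND1 and ND2 had both values, and in CER alone. ND1 (ENSMMUG00000028699, at MT 3259 to 4351 together with 2 unnamed genes) had 4272 FPKM in Chinese-origin and 12350.5 FPKM in Indian-origin CER, a log2 ratio of -1.53. ND2 (ENSMMUG00000028695, at MT 4421 to 5529 together with 1 unnamed gene) had 4655 and 10248 FPKM, a log2 ratio of -1.14. Both were further apart than ND5. In PFC and STR the Indian-origin values of ND1 and ND2 were missing, and the Chinese-origin values were 10979 and 10613 FPKM in PFC and 12984 and 13250.5 FPKM in STR. ND4 and ND4L, which share MT 10461 to 12128, had Chinese-origin values only. ND4 was at 8597, 4608 and 11441.5 FPKM in PFC, CER and STR, and ND4L at 1830.5, 1128 and 2757 FPKM, the lowest of the named genes in each region.

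Complex III, which passes electrons from ubiquinol to cytochrome c, has cytochrome b as its only mitochondrially encoded subunit. MT-CYB (ENSMMUG00000028670, MT 14741 to 15881) had 5256 FPKM in Chinese-origin and 14844.5 FPKM in Indian-origin CER, a log2 ratio of -1.50. MT-CYB stands alone at its locus, and its difference was close to that of ND1. Its Chinese-origin values were 10393 FPKM in PFC and 13032.5 FPKM in STR, with no Indian-origin value beside them.

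Complex IV, the cytochrome c oxidase that reduces oxygen, and complex V, the ATP synthase, could not be compared between origins in any region. COXII (MT 7532 to 8215), the subunit that takes up electrons from cytochrome c, had Chinese-origin values of 25692, 11866 and 30765 FPKM in PFC, CER and STR. COX1 (MT 5850 to 7388), the catalytic subunit, had a value in Chinese-origin CER only, 6494 FPKM. COXIII, ATP6 and ATP8 share MT 8357 to 9981 and overlap there, and they too had values in Chinese-origin CER only, of 14933, 8264 and 7746 FPKM. Because the 3 tables were normalized separately, levels across regions were set side by side only as ratios to ND3 within a table. Within Chinese origin, COXII was at 1.12 times ND3 in PFC, 0.968 times in CER and 1.07 times in STR, and ND4 at 0.375, 0.376 and 0.397 times. Not every gene kept its ratio, since ND1 was at 0.479, 0.349 and 0.451 times ND3 and the unnamed gene at MT 608 to 1554 at 0.357, 0.209 and 0.362 times in PFC, CER and STR. The values of COXII and ND4 in every region, and of ND1 in PFC and STR, stood on HIDATA lines. Those of ND1 in CER and of the unnamed gene in every region had the status OK.

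**Figure D2:**
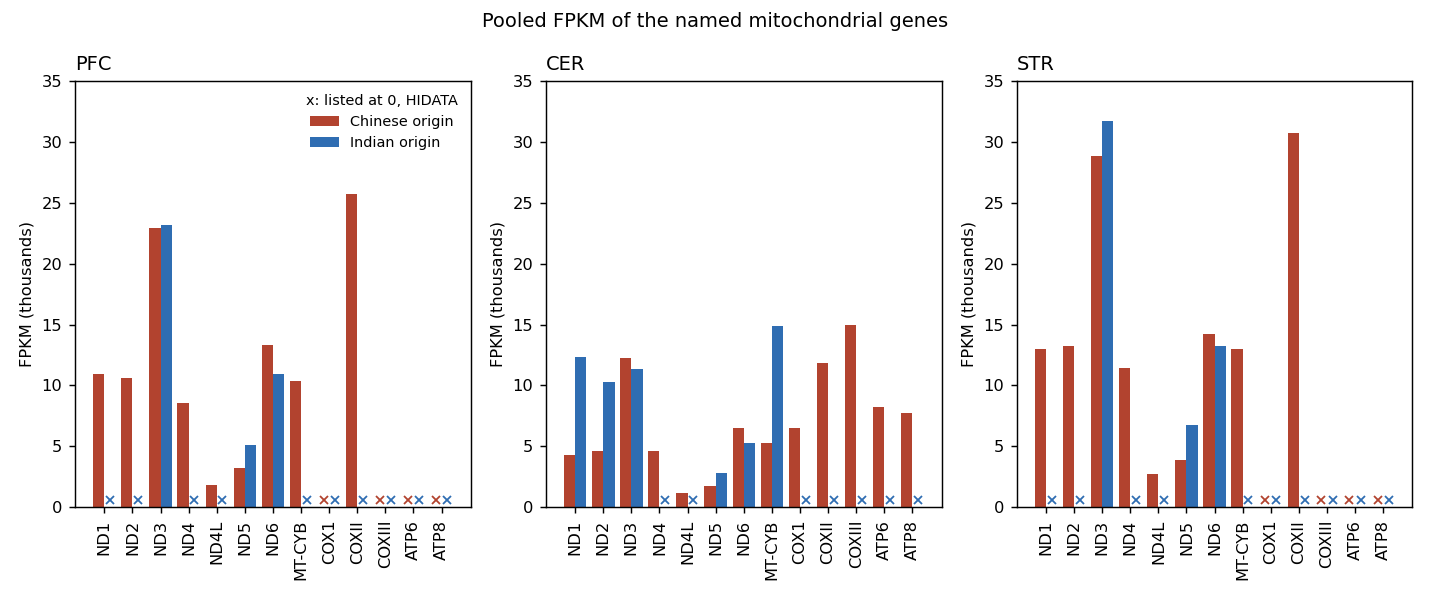
Pooled FPKM, in units of 1000, of the 13 named mitochondrial genes in PFC, CER and STR, with the Chinese-origin bar left of the Indian-origin bar and crosses for HIDATA values listed at 0. ND3, ND5 and ND6 have both bars in every region, ND1, ND2 and MT-CYB in CER only, and the complex IV and V genes in none.

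Summed over the named genes with both values, Chinese-origin monkeys had 39444 FPKM and Indian-origin monkeys 39262 FPKM in PFC, a ratio of 1.00 over ND3, ND5 and ND6. For the same 3 genes in STR the sums were 46946 and 51757 FPKM, a ratio of 0.907. In CER, where ND1, ND2 and MT-CYB entered as well, they were 34715 and 56896 FPKM, a ratio of 0.610. Over ND3, ND5 and ND6 alone, the CER sums were 20533 FPKM in Chinese origin and 19452 FPKM in Indian origin, a ratio of 1.06. The lower CER sum thus came from the 3 genes that had both values in that region only.

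Among the unnamed genes with a long locus, the one at MT 608 to 1554 (947 bases, second in genome order) had values in both origins of every region and stood alone at its locus. It had 8201 FPKM in Chinese-origin and 14805 FPKM in Indian-origin PFC, 2557 and 5191 FPKM in CER, and 10428 and 22426 FPKM in STR. Its log2 ratios were -0.85, -1.02 and -1.10, below those of ND5 in each region. It was lower in Chinese origin with and without the shift, with values relative to the median of -1.05, -1.12 and -1.41. The gene at MT 1624 to 3181 (1558 bases) had a single value, 9154 FPKM in Chinese-origin CER.

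The unnamed genes that share a locus with ND1 or ND2 had both values in CER only, and they stood far apart from their named neighbors. At MT 3259 to 4351, the unnamed genes were at 3468.5 FPKM in Chinese origin and 37274 FPKM in Indian origin (log2 ratio -3.43), and at 2329 and 26926 FPKM (log2 ratio -3.53). At MT 4421 to 5529, the unnamed gene went against ND2, with 13185.5 FPKM in Chinese origin and 4531 FPKM in Indian origin, a log2 ratio of 1.54. Genes of 1 locus thus differed between origins in opposite directions in CER. In PFC, the 3 genes had Chinese-origin values of 5290.5, 3654 and 14701.5 FPKM, and in STR of 7742, 7262 and 20061 FPKM.

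The 3 unnamed genes at MT 5537 to 5679 share a locus of 143 bases, the shortest above the limit of 75. The highest of them had 395803 FPKM in Chinese-origin and 329014 FPKM in Indian-origin PFC, 209129 and 115934 FPKM in CER, and 494058 and 259258 FPKM in STR. The second had 146941 and 145183 FPKM, 77339 and 49262 FPKM, and 172916 and 116078 FPKM, and the third 16866 and 16612 FPKM, 9684 and 5565 FPKM, and 22403 and 13814 FPKM, both in the same order of origins and regions. The log2 ratios of the 3 genes lay between 0.02 and 0.27 in PFC, 0.65 and 0.85 in CER, and 0.57 and 0.93 in STR. They were higher in Chinese origin in CER and STR before and after the shift was taken off, whereas in PFC 2 of them turned to -0.18 and -0.17 and the highest stayed at 0.07. The gene just inside the limit, MT 3182 to 3256 with 75 bases, is described with the short genes and was lower in Chinese origin in every region.

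Ratios between genes of 1 table do not depend on how the origins were scaled. Of the summed FPKM of ND3, ND5, ND6 and the gene at MT 608 to 1554, ND3 took 48.2% in Chinese-origin PFC and 42.9% in Indian-origin PFC, 53.1% and 46.2% in CER, and 50.2% and 42.8% in STR. For ND6 the shares were 27.9% and 20.3% in PFC, 28.3% and 21.3% in CER, and 24.8% and 17.9% in STR. Both were thus larger shares in Chinese origin. ND5 took 6.70% in Chinese origin and 9.40% in Indian origin in PFC, 7.52% and 11.4% in CER, and 6.77% and 9.09% in STR. The gene at MT 608 to 1554 took 17.2% and 27.4%, 11.1% and 21.1%, and 18.2% and 30.2%. ND5 and the unnamed gene thus made up less of the 4 in Chinese origin in each region. ND5 stood at 0.139 times ND3 in Chinese-origin PFC and 0.219 times in Indian-origin PFC, 0.142 and 0.248 in CER, and 0.135 and 0.212 in STR.

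**Figure D3:**
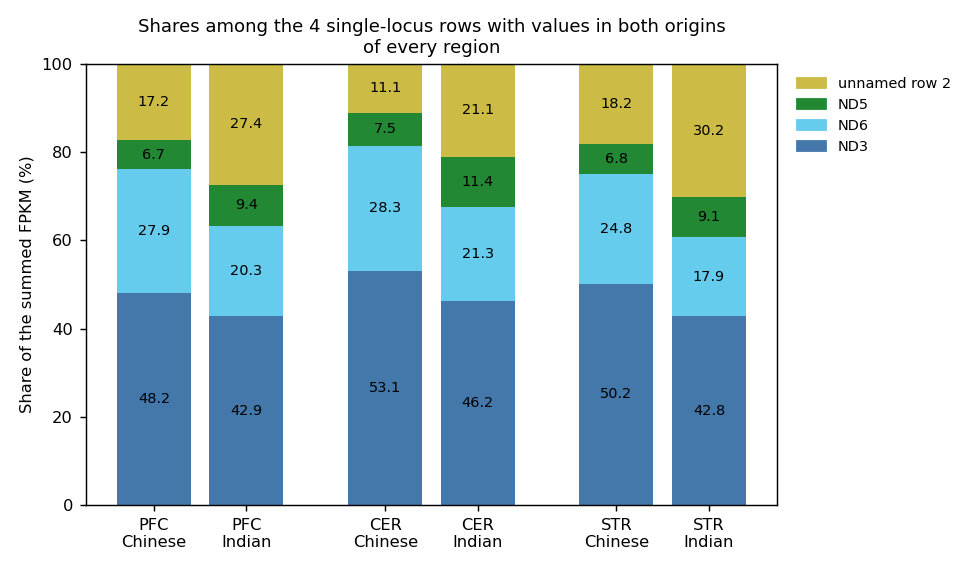
Share in percent of the summed FPKM of the 4 mitochondrial genes that stand alone at a locus above 75 bases and have values in both origins of every region, with Chinese origin left of Indian origin in each region; the gene at MT 608 to 1554 is drawn as unnamed row 2. ND3 and ND6 together take a larger share in the Chinese-origin bar of each region.

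The 17 genes with a locus of up to 75 bases differed far more between the origins. All 17 had the status OK in every region. In Chinese origin 4 of them were at 0 in PFC, 4 in CER, and 2 in STR, against 0 in Indian origin in any region. Of the 17 genes, 11 were lower in Chinese origin by 1.5-fold or more in every region with both values, 2 were higher in every region, 2 stayed within 1.5-fold in every region, and 2 were listed at 0 in Chinese origin throughout. Over all genes, 2.75%, 3.85% and 2.24% were lower and 6.42%, 6.17% and 18.5% higher by that much in PFC, CER and STR. Values of genes about as long as the 50-base reads depend strongly on the length correction of FPKM, and for this reason the short genes are kept apart from the long ones here.

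The 4 short genes with the highest mean FPKM show the spread of these differences. The highest, at MT 7390 to 7461 (ENSMMUG00000028688, 72 bases), had 533 FPKM in Chinese-origin and 1497770 FPKM in Indian-origin PFC, 561 and 705953 FPKM in CER, and 612 and 1500650 FPKM in STR. Its log2 ratios of -11.46, -10.30 and -11.26 were the lowest of all mitochondrial genes in each region. Next came the gene at MT 15946 to 16014 (ENSMMUG00000028668, 69 bases), the last before the end of the listed loci. It had 25646 FPKM in Chinese-origin and 739595 FPKM in Indian-origin PFC, 16808 and 709827 FPKM in CER, and 37628 and 1145200 FPKM in STR, with log2 ratios of -4.85, -5.40 and -4.93. In Indian origin, the FPKM of both were thus far above those of every named gene with a value. At loci this short FPKM depends strongly on the length correction, so this does not rank the amounts of RNA.

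At MT 3182 to 3256, between the gene at MT 1624 to 3181 and the locus of ND1, the difference was smaller. The values were 223090 FPKM in Chinese-origin and 502696 FPKM in Indian-origin PFC, 89733 and 289117 FPKM in CER, and 324136 and 628767 FPKM in STR. The log2 ratios were -1.17, -1.69 and -0.96. The last of the 4, at MT 14668 to 14736 between ND6 and MT-CYB, had nearly equal values in the origins. They were 116385 FPKM in Chinese-origin and 105646 FPKM in Indian-origin PFC, 54520 and 47840 FPKM in CER, and 211055 and 188395 FPKM in STR. Its log2 ratios of 0.14, 0.19 and 0.16 changed to -0.06, 0.09 and -0.15 relative to the median of all genes, so no direction can be given in PFC and STR.

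The genes higher in Chinese origin in every region were those at MT 5775 to 5845 (ENSMMUG00000028690), just before COX1, and at MT 9982 to 10049 (ENSMMUG00000028681), just before ND3. The first had 86060 FPKM in Chinese-origin and 27536.5 FPKM in Indian-origin PFC, 44173 and 10436 FPKM in CER, and 138828 and 35764 FPKM in STR, with log2 ratios of 1.64, 2.08 and 1.96. The second had 74109 and 29994 FPKM in PFC, 34883 and 17894.5 FPKM in CER, and 124505 and 32205 FPKM in STR, with log2 ratios of 1.30, 0.96 and 1.95. Both were still past 1.5-fold after the shift was taken off. The neighbor of the first, at MT 5712 to 5774, went the opposite way by a wide margin. It had 1143 FPKM in Chinese-origin and 313129 FPKM in Indian-origin PFC, 377 and 105611 FPKM in CER, and 464 and 296648 FPKM in STR. Adjoining short genes thus differed in opposite directions.

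The other short genes lower in Chinese origin lay along the whole genome. The log2 ratios were -3.74 to -2.78 at MT 536 to 607, -4.65 to -3.78 at MT 4353 to 4420, -3.21 to -2.35 at MT 8291 to 8355 and -4.28 to -3.76 at MT 12129 to 12197. Genes with a value of 0 in Chinese origin in some region were further apart where both values existed. The log2 ratios there were -6.41 in CER and -7.48 in STR at MT 1555 to 1623, -6.46 in PFC and -6.89 in STR at MT 7463 to 7530, and -7.80 in STR at MT 12257 to 12327. At MT 12198 to 12256 and MT 15882 to 15945, Chinese origin was listed at 0 in all 3 regions, while Indian origin had 55763, 39561 and 86513 FPKM at the first and 59919, 54555 and 87924 FPKM at the second in PFC, CER and STR. No fold is given for these, since the tables hold no counts. The gene at MT 10396 to 10460, between ND3 and the locus of ND4L and ND4, had log2 ratios of 0.57, 0.44 and 0.36 and stayed within 1.5-fold in every region.

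**Figure D4:**
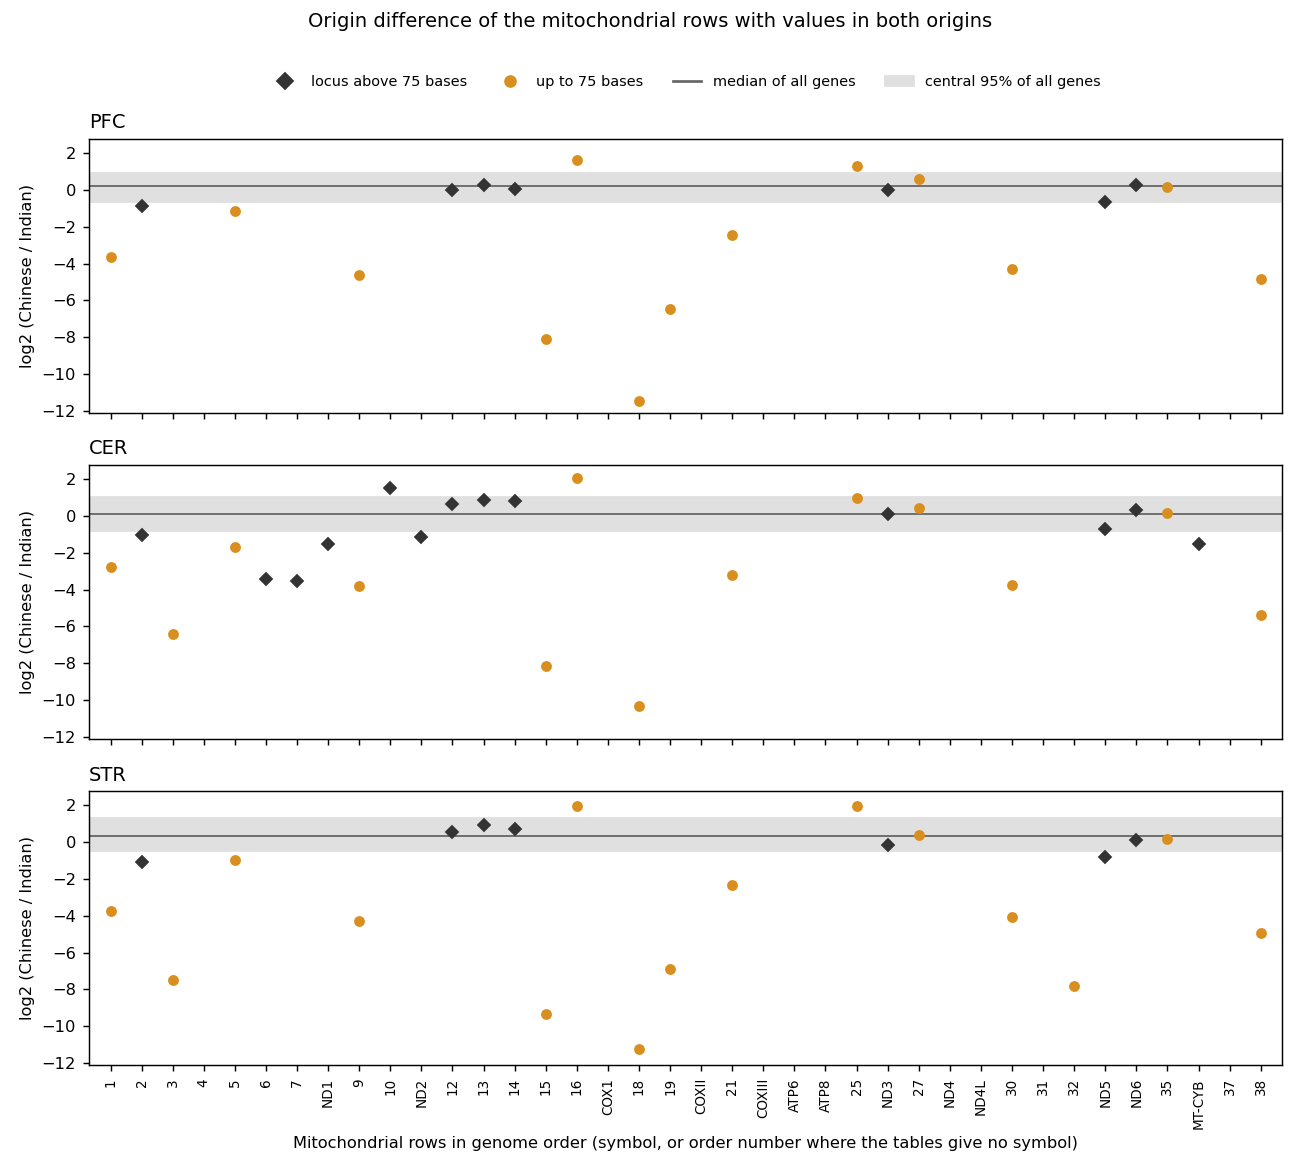
Log2 ratio of Chinese over Indian origin for the mitochondrial genes with values in both origins, in genome order, with diamonds for loci above 75 bases and circles for shorter ones; the line is the median of all genes and the band holds the central 95% of them. Short genes reach -11.46 in PFC, while ND3, ND6, the long genes numbered 12, 13 and 14 and the short genes numbered 27 and 35 lie within the band in every region.

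Counted at a difference of 1.5-fold or more, 2 of 20 mitochondrial genes were higher and 11 lower in Chinese-origin PFC, 6 and 16 of 26 in CER, and 4 and 13 of 22 in STR. Over all genes of the same tables, 6.42% were higher and 2.75% lower in PFC, 6.17% and 3.85% in CER, and 18.5% and 2.24% in STR. The share of genes lower in Chinese origin was thus well above that of all genes in each region, and most of them were short. With the median of all genes subtracted, 2 were higher and 11 lower in PFC, 5 and 16 in CER, and 3 and 13 in STR, beside 3.45% and 4.01%, 4.87% and 4.85%, and 6.57% and 4.04% of all genes. Of the genes above 75 bases, 0 of 7 were higher and 2 lower in PFC, 4 and 7 of 13 in CER, and 2 and 2 of 7 in STR. These longer genes had median log2 ratios of 0.02, -0.70 and 0.10 in PFC, CER and STR. Relative to all genes the medians were -0.18, -0.80 and -0.21, so that the sign in PFC and STR depends on the shift. In CER it depends on which genes are measured. Over the 7 long genes with both values in every region, a choice made after seeing the data, the CER median was 0.32, or 0.22 relative to all genes, with 3 genes higher and 2 lower by 1.5-fold. Of these 7, the 3 at MT 5537 to 5679 share a locus of 143 bases, so each may itself be short. The 4 that stand alone had a CER median of -0.30, or -0.39 relative to all genes. The medians of the long genes leave out 14, 8 and 14 genes marked HIDATA for too many fragments, of which 9, 8 and 9 lacked the Indian-origin value alone. They thus do not stand for all long genes. Of those left out in PFC and STR but measured in CER, ND1, ND2 and MT-CYB were at -1.53, -1.14 and -1.50. The unnamed genes beside ND1 were at -3.43 and -3.53, and the 1 beside ND2 at 1.54. The short genes had medians of -3.67, -3.21 and -4.09, over 13, 13 and 15 genes.

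Among genes with values in both origins, nuclear genes of the same length differed by less. The tables hold 516 nuclear genes with a locus of up to 75 bases, of which 47, 56 and 48 in PFC, CER and STR had values in both origins and passed the minimum of 1 FPKM. Their median absolute log2 ratio was 0.52, 0.28 and 0.25, against 3.67, 3.21 and 4.09 for the short mitochondrial genes. A difference of 16-fold or more was held by 6 of 13, 4 of 13 and 8 of 15 of these short mitochondrial genes and by 0 of the nuclear ones in each region. These counts leave out genes listed at 0 in 1 origin. Of the short nuclear genes with 1 FPKM or more in the other origin, those at 0 in Chinese origin numbered 18, 10 and 16 in the regions, and those at 0 in Indian origin 14, 16 and 20. Where the other origin had 1000 FPKM or more, the same numbers were 2, 0 and 1 for Chinese origin and 1, 0 and 3 for Indian origin. The short mitochondrial genes were at 0 in Chinese origin only. Most short nuclear genes had low values, and few reached the level of the mitochondrial ones. At 1000 FPKM or more, 8, 11 and 8 short nuclear genes of PFC, CER and STR had both values, with log2 ratios from -0.68 to 2.10, -0.43 to 1.12 and -0.98 to 0.55.

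Mitochondrial genes held a large part of all FPKM, and in Indian origin most of it lay in the short genes. All 38 together took 55.5% of the summed FPKM in Chinese-origin PFC and 81.8% in Indian-origin PFC, 39.6% and 70.4% in CER, and 62.4% and 84.1% in STR. The genes above 75 bases took 30.3% in Chinese origin and 10.8% in Indian origin in PFC, 23.7% and 8.76% in CER, and 30.3% and 8.06% in STR. These shares are of totals that differed, at 2309410 and 5067270 FPKM in PFC, 1754470 and 3442750 in CER, and 2854140 and 5748730 in STR. The sums of the long genes lay closer. They were 699006 and 544876 FPKM in PFC, 416601 and 301578 FPKM in CER, and 866047 and 463333 FPKM in STR. Most of each sum came from the 3 unnamed genes that share the 143-base locus at MT 5537 to 5679. The sums and shares of the long genes thus say little about the named genes. These sums lack 14, 8 and 14 HIDATA values in Indian origin but only 5, 0 and 5 in Chinese origin, so the shares of the origins do not cover the same genes. Among genes with a locus above 300 bases alone, the order in CER turned, with 12.7% in Chinese origin and 14.2% in Indian origin. A share of FPKM weights a short gene more than its fragments do, so these percentages are not shares of reads.

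Few nuclear genes whose products work with the mitochondrial genome were past 1.5-fold. Of 77 nuclear and complex II subunits of oxidative phosphorylation, 59, 56 and 56 were measured in PFC, CER and STR. Their median log2 ratio was 0.14, 0.03 and 0.05, against 0.20, 0.10 and 0.31 over all genes. Relative to all genes it was -0.0557, -0.0689 and -0.26, against -0.18, -0.80 and -0.21 for the long mitochondrial genes, so in STR both lay at about the same level. At 1.5-fold, 1, 1 and 0 subunits were higher in these regions and 0 lower, beside 6.42%, 6.17% and 18.5% of all genes higher. The 1 past the limit was NDUFA1, a small membrane subunit of complex I, with 1411 FPKM in Chinese-origin and 890.02 FPKM in Indian-origin PFC, 1544 and 1029 FPKM in CER, and 1733 and 1202 FPKM in STR. Its log2 ratios were 0.67, 0.59 and 0.53, or 0.47, 0.49 and 0.22 relative to the median of all genes, which is within 1.5-fold. SDHA, the flavoprotein of complex II, had log2 ratios of 0.14, 0.18 and 0.22, and COX5B, a nuclear subunit of complex IV, had -0.13, -0.26 and -0.24.

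Other complex subunits that the rule picked in every region stayed within 1.5-fold. The log2 ratios of NDUFV3, a complex I subunit, were 0.33, 0.32 and 0.36. For SDHC, a membrane anchor of complex II, they were 0.30, -0.09 and 0.28. In complex III, CYC1, its cytochrome c1, had 0.14, -0.07 and 0.25, UQCRB 0.11, 0.09 and 0.07, and UQCRQ 0.14, -0.06 and -0.22. None of these nuclear partners of ND5 and MT-CYB was lower in Chinese origin by 1.5-fold.

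The genes that copy, transcribe and translate the mitochondrial genome had medians near that of all genes, except for ribosomal proteins in STR, at -0.17 relative to it. Median log2 ratios in PFC, CER and STR were 0.17, 0.11 and 0.25 for mitochondrial transcription and RNA processing, 0.13, 0.09 and 0.40 for mitochondrial DNA maintenance, 0.21, 0.04 and 0.28 for the aminoacyl-tRNA synthetases that charge mitochondrial tRNAs, and 0.18, 0.07 and 0.14 for mitochondrial ribosomal proteins. At 1.5-fold, the transcription and RNA processing list had 0 members higher and 0 lower in any region. The synthetases had 0, 1 and 3 members higher, DNA maintenance 0, 0 and 2, ribosomal proteins 0, 0 and 1, and each of these lists 0 lower. In STR, 18.5% of all genes were past that limit. CARS2, the cysteinyl-tRNA synthetase, was at 26.3 FPKM in Chinese-origin and 14.7 FPKM in Indian-origin CER, a log2 ratio of 0.84. VARS2, the valyl-tRNA synthetase, was at 24.2 and 14.1 FPKM in STR (0.77), and WARS2, the tryptophanyl-tRNA synthetase, at 9.68 and 6.35 FPKM (0.61). RNASEH1, which removes RNA from RNA-DNA hybrids, was at 14.6 and 8.72 FPKM (0.74), TOP1MT, the mitochondrial topoisomerase, at 14.8 and 8.82 FPKM (0.74), and the ribosomal protein gene MRPL42 at 59.1 and 36.8 FPKM (0.68) in the same region. Relative to the STR median, 0 members of these 4 lists were 1.5-fold higher and 1, a synthetase, was 1.5-fold lower. MRPS17, a protein of the small ribosomal subunit, had log2 ratios of 0.48, 0.40 and 0.43.

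Regulators of mitochondrial biogenesis had median log2 ratios of 0.21, 0.08 and 0.37. Their only member past 1.5-fold was SIRT3, a mitochondrial deacetylase, at 10.2 FPKM in Chinese-origin and 6.12 FPKM in Indian-origin STR. Its log2 ratio there was 0.73, but 0.42 relative to the STR median, which is within 1.5-fold, and 18.5% of all STR genes were higher by that much. GABPA, a transcription factor of nuclear mitochondrial genes, had 0.32, 0.21 and 0.26. Proteins of mitochondrial membranes and matrix outside oxidative phosphorylation, taken here as a list of mitochondrial mass, had medians of 0.18, 0.07 and 0.19 and 0 members past 1.5-fold. Among these, IMMT, a scaffold of the inner membrane, had log2 ratios of 0.24, 0.14 and 0.47, and TOMM20, an import receptor of the outer membrane, had 0.23, 0.17 and 0.38. These lists thus lay near the median of all genes in each region, the furthest being mitochondrial mass in STR, at -0.12 relative to it.

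**Figure D5:**
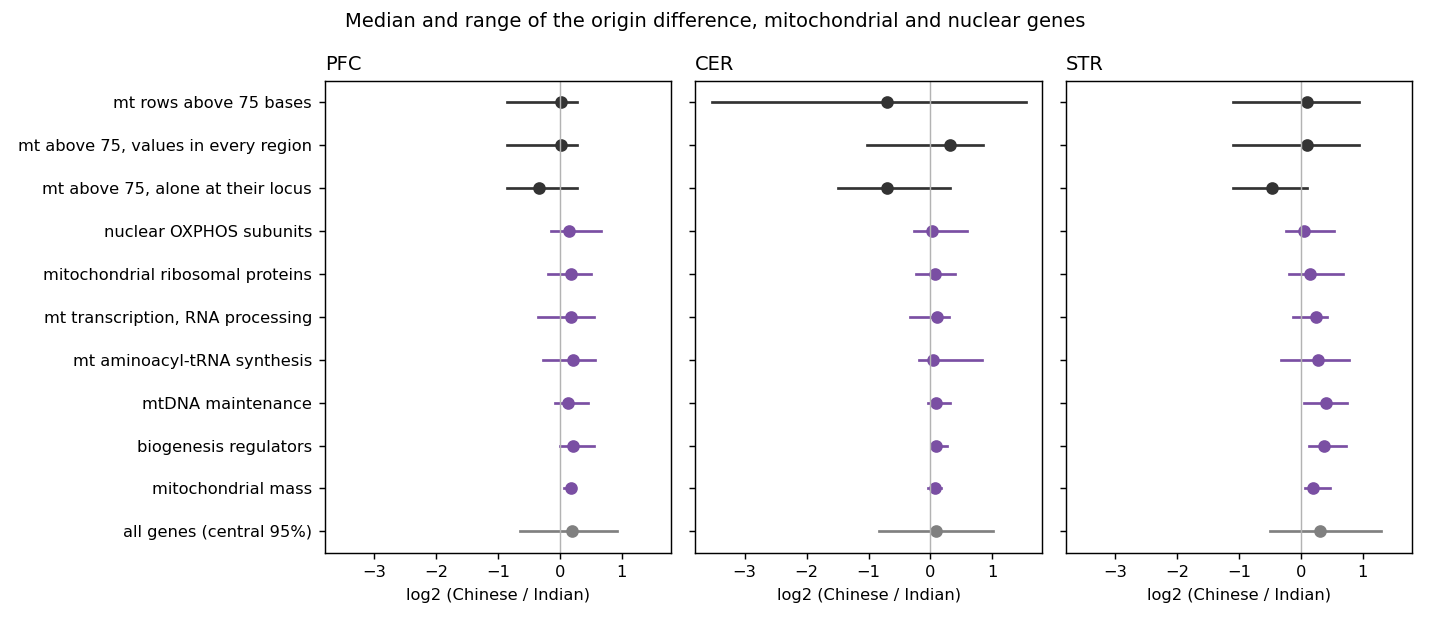
Median (point) and range (line) of the log2 ratio of Chinese over Indian origin in PFC, CER and STR for mitochondrial genes (mt) with a locus above 75 bases and for 7 lists of nuclear genes, with the median and central 95% of all genes at the bottom. The nuclear medians run from 0.03 to 0.40, and the mitochondrial ones are 0.02, -0.70 and 0.10 over all such genes, 0.02, 0.32 and 0.10 over the 7 with values in every region, and -0.34, -0.70 and -0.47 over those alone at their locus, both subsets chosen after seeing the data. Of the 7, the 3 genes at MT 5537 to 5679 share a locus.

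Markers of cell types also differed between origins in places. In STR, 5 of 6 markers of excitatory cortical neurons were at least 1.5-fold higher in Chinese origin, with a median log2 ratio of 2.28 and a summed level of 2207 FPKM in Chinese origin and 1822 FPKM in Indian origin. All 5 stayed past that limit relative to the STR median, and 18.5% of all STR genes were past it before. Striatal projection neuron markers in the same tissue summed to 1170.5 and 958 FPKM, with 0 of 4 measured, out of 7 listed, past 1.5-fold. In CER, all 5 markers of choroid plexus, the secretory epithelium of the ventricles, were at least 1.5-fold lower in Chinese origin, beside 3.85% of all CER genes. They had sums of 657 and 2096 FPKM. Most of both sums came from TTR, the gene of the transport protein transthyretin. TTR was also lower in Chinese origin in PFC, at 7.35 and 26.3 FPKM, and in STR, at 25.8 and 40.1 FPKM. Its log2 ratios there were -1.84 and -0.64. The other measured marker of PFC, KL, went the other way at 1.17 and 1.02 FPKM, a log2 ratio of 0.20. In STR, the 3 measured markers ran from -0.64 to 0.12, with 1 lower by 1.5-fold. Markers of cerebellar granule and Purkinje cells in CER summed to 2390 and 2253 FPKM, with 0 of 7 past 1.5-fold. In PFC, excitatory neuron markers summed to 2707 and 2325 FPKM and 0 of 6 were past 1.5-fold. Measured markers of the main neurons thus stayed within 1.5-fold in each region, though their sums were higher in Chinese origin. With 4 to 7 measured markers, a count of 0 is near the share over all genes and does not show equal levels. Microglia markers were past 1.5-fold in 2 of 5 cases in PFC, 0 of 5 in CER and 2 of 5 in STR, with sums of 56.3 and 37.0 FPKM, 41.9 and 39.6 FPKM, and 119 and 85.9 FPKM. Relative to the median of all genes, 0 of them were 1.5-fold higher in any region. Without the shift taken off, 6.42%, 6.17% and 18.5% of all genes were higher by that much in PFC, CER and STR. The remaining lists, of astrocytes, oligodendrocytes, endothelial cells and blood, had at most 1 measured marker past 1.5-fold in a region, and the hemoglobin gene HBA2 was listed at 0 in all 3. Whether these differences play a part in the mitochondrial values was not tested.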

How the data were processed

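Total RNA from 18 brain samples was made into libraries with the TruSeq RNA kit and sequenced from 1 end, to a read length of 50 bases. After a FastQC check, the authors mapped the reads to mmul1 by TopHat and compared the origins with Cuffdiff, for which the submitters' processing notes give version 0.0.5. In the deposited table of a region, the authors give each gene 1 pooled FPKM for each origin. Its fold changes, test statistics, p-values and q-values are the authors' own comparison and were not used. In STR, 1 line that repeated an identifier was left out.

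Members were the genes on MT, and positions in the files, which count from 0, were raised to count from 1. No value per monkey was analysed, so no test was run. Log2 ratios were taken as Chinese over Indian origin with no pseudocount, where both pooled values were above 0. A difference counted from 1.5-fold. Percentages over all genes used lines with status OK and an FPKM of at least 1 in either origin. Of each nuclear list, the rule picked the 3 genes with the largest absolute log2 ratio among those with an FPKM of at least 5 in both origins of a region, and the text gives those picked in all 3 regions or past 1.5-fold. For a symbol at several loci the highest FPKM was used. Every mitochondrial gene is named by symbol or position. The rule for members uses position alone, but this group of genes and the lists were chosen with earlier results of these data known. The 25 unnamed identifiers matched 0 entries of the reference annotation, and no sequence is shown. The ratios, counts and medians were tested on simulated data. Python 3.11.15, numpy 2.4.6, pandas 2.3.3 and matplotlib 3.10.9 were used. Alternatives covered the origin shift, pseudocounts, length, status, fold and weighting.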

Additional observations from a re-analysis of the deposited data

How the results depend on the processing

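No paired analysis was possible because the tables hold 1 pooled value per origin, and for the same reason no monkey could be left out in turn. Of 144 values recomputed under an alternative, 96 stayed close to those in the text and 30 had another sign than in the text. With the median of all genes subtracted, the median log2 ratio of mitochondrial genes above 75 bases was -0.18 in PFC and -0.21 in STR, and with the shift taken over genes of every status, an alternative chosen after seeing the data, it was also -0.18 and -0.21. Restricting it to genes above 300 bases gave -0.34, -1.08 and -0.47 in PFC, CER and STR, and restricting it to genes alone at their locus, chosen after seeing the data, gave -0.34 in PFC and -0.47 in STR. With named genes only it was -0.92 in CER and -0.14 in STR. Over genes with both values in every region, also chosen after seeing the data, it was 0.32 in CER. That set holds the 3 genes that share the locus at MT 5537 to 5679. Over its 4 genes alone at their locus, the median was -0.34, -0.30 and -0.47 in PFC, CER and STR. The sign of this median is therefore not settled in any of the 3 regions. Short genes were at -3.86 in PFC and -4.40 in STR after the subtraction. At a fold of 2, 2 genes were higher in CER and 2 in STR.

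The log2 ratio of the summed named genes, which was 0.01, -0.71 and -0.14 in PFC, CER and STR, became -0.19 in PFC and -0.45 in STR after the subtraction, and -0.15, -1.01 and -0.30 with FPKM weighted by locus length. Without the gene of the largest sum it was -1.02 in CER, and over ND3, ND5 and ND6 alone, chosen after seeing the data, 0.0780 in CER. Among genes above 300 bases only, mitochondrial ones took 14.7% in Chinese-origin PFC and 7.004% in Indian-origin PFC, 12.7% and 14.2% in CER, and 17.5% in Chinese-origin STR. With all 38 mitochondrial genes, chosen after seeing the data, it was 55.5% and 81.8% in PFC, 39.6% and 70.4% in CER, and 62.4% and 84.1% in STR. After the subtraction, the nuclear medians in PFC and STR were -0.0557 and -0.26 for oxidative phosphorylation, -0.0231 and -0.0598 for transcription and RNA processing, -0.0714 and 0.0945 for DNA maintenance, 0.0158 and -0.0275 for aminoacyl-tRNA synthesis, 0.0142 and 0.0616 for biogenesis, -0.0177 and -0.12 for mitochondrial mass, and -0.0194 and -0.17 for ribosomal proteins. The cause of these changes was not tested. What limits all values is the missing Indian-origin HIDATA entries, the pooled values and the depth of single libraries, which is unknown here. Reads of both origins were also mapped to the same build, mmul1, and whether this bears on the origin ratios was not tested.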
